A study of Mus musculus with 9 samples.

Results

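The genes described here encode 10 enzymes that remove superoxide and peroxides: the superoxide dismutases Sod1, Sod2 and Sod3, the glutathione peroxidases Gpx1, Gpx3 and Gpx4, the peroxiredoxins Prdx3 and Prdx5, the mitochondrial thioredoxin Txn2 and its reductase Txnrd2. They were chosen by symbol, and all 10 of 10 were found once each among the 22527 gene symbols of the deposited table. The study measured ribosome-bound messenger RNA in 3 mouse adipose depots, the brown one (BAT), the inguinal white one (iWAT) and the white one of the epididymis (eWAT), with 3 libraries per depot. Frozen tissue was homogenised, an antibody against green fluorescent protein pulled down ribosomes, and the bound RNA was freed of ribosomal RNA and sequenced, a method known as translating ribosome affinity purification. All 9 libraries are labelled as strain C57BL/6, genotype wild type and age 8 weeks, and no treatment is named for any of them. The labels do not say which cells carried the tagged ribosomes, how many animals gave each sample, or whether the 3 samples of a depot came from separate animals, so p-values here measure only the spread between these samples. The name of the deposited table refers to adiponectin, an adipocyte hormone.

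Superoxide leaks from the respiratory chain and is made by oxidases. Superoxide dismutases turn it into hydrogen peroxide, Sod1 with copper and zinc in the cytosol, Sod2 with manganese in the mitochondrial matrix, and Sod3 outside the cell. Peroxides are then reduced by glutathione peroxidases, which draw electrons from glutathione, or by peroxiredoxins, which draw them from thioredoxin and thioredoxin reductase. Prdx3, Txn2 and Txnrd2 form such a chain in mitochondria, and Prdx5 acts in mitochondria, peroxisomes and the cytosol. Brown adipocytes are rich in mitochondria and burn fuel for heat through Ucp1, whereas white adipocytes store fat.

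The values are FPKM, counts of sequenced fragments scaled for transcript length and for the size of the library. The brown adipocyte marker Ucp1 stood at 2704 ± 317 FPKM in BAT (SD, n = 3), 2.90 ± 0.58 in iWAT and 2.17 ± 1.40 in eWAT. BAT 3, whose tissue field names inguinal white fat while its title and source name say brown, had 3054 FPKM of Ucp1 and was kept as BAT. The 7 brown adipocyte markers summed to at least 25169.8 FPKM in each BAT library and to at most 529 in any white library, with Elovl3 at 0 in all 6 of them. All 7 adipocyte markers, Adipoq and Plin1 among them, were present in every depot, and their summed level was 24561 to 60021 FPKM per library. Fabp4 made up most of this sum, and the markers did not move together. Plin1 and Pparg were called higher in BAT than in iWAT, whereas Adipoq, Fabp4 and Cidec were called lower in BAT than in eWAT. The 7 macrophage markers summed to at most 5.00 FPKM and the 6 endothelial markers to at most 6.87 FPKM in any library. The 7 skeletal muscle markers summed to 60.6 to 149.7 FPKM in BAT, 1811 to 2504 in iWAT and 227 to 1296 in eWAT. The 6 stromal markers summed to 3.35 to 16.6 FPKM in BAT, 84.3 to 347 in iWAT and 61.6 to 164 in eWAT. Dpt made up most of the sum in iWAT, while Dcn was lower there than in eWAT, at 4.03 ± 1.99 against 53.8 ± 38.1 FPKM. The 6 epithelial markers summed to 18.6 to 38.4 FPKM in BAT, 129.6 to 359 in iWAT and 51.3 to 176 in eWAT, with Krt5 and Krt14 called lower in BAT in both comparisons. The 4 smooth muscle markers summed to 1.03 to 1.68 FPKM in BAT, 1.91 to 7.07 in iWAT and 6.82 to 24.1 in eWAT. Sequencing depth, estimated from the steps between low values, was 11.1 to 21.2 M reads in BAT, 2.92 to 4.69 M in iWAT and 4.46 to 16.5 M in eWAT, where eWAT 1 was the deepest. BAT and iWAT thus differed in depth as well as in depot, which cannot be told apart, and the part that depth and the marker differences play in the results was not tested. iWAT 1 stood apart from its group: its correlation over genes was 0.945 to 0.963 with the eWAT libraries and 0.899 to 0.934 with iWAT 2 and iWAT 3. In such bulk samples, fewer cells of a type and less RNA per cell cannot be told apart.

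Of these enzymes, 4 are selenoproteins, in which a TGA codon that would end other proteins is read as selenocysteine, the residue that carries out the reaction. In the GENCODE vM1 transcripts on NCBIM37 (mm9), the longest transcripts of Gpx1, Gpx3, Gpx4 and Txnrd2 each held 1 TGA inside the reading frame, which the shorter transcripts of Txnrd2 lacked, and the other 6 members held none in their complete reading frames. The sequences below are shown because this codon ties the 4 genes to the selenium genes described later. They run 5′ to 3′ with the TGA in capitals.
Gpx1: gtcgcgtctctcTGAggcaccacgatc
Gpx3: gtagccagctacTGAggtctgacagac
Gpx4: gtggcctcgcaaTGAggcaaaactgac
Txnrd2: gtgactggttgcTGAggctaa
The Gpx1 codon lies at chr9:108241782-108241784 in exon 1 of 2 and is codon 47 of 202. The Gpx3 codon lies at chr11:54720758-54720760 in exon 2 of 5 and is codon 73 of 227. The Gpx4 codon lies at chr10:79517482-79517484 in exon 3 of 7 and is codon 129 of 254 in the longest transcript. The Txnrd2 codon lies at chr16:18477865-18477867 in exon 17 of 18 and is codon 523 of 525, so that a single codon separates it from the final stop. In all 4 genes the codon after the TGA began with gg, and in the peroxidases the TGA sat well inside the frame.

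The promoters were read from RefSeq tables on GRCm38.p6, a later build than that of the values, as 250 bases before to 50 bases after each start. Of the members, 9 of 10 had an entry, and Sod3 had none. Those of Sod2 and Gpx3, which had the largest differences between BAT and eWAT, and of Sod1, which differed least between BAT and eWAT, are shown for comparison, with the GC box GGGCGG on either strand in capitals and, in Sod1 alone, also the antioxidant response element core TGACNNNGC.
Sod2: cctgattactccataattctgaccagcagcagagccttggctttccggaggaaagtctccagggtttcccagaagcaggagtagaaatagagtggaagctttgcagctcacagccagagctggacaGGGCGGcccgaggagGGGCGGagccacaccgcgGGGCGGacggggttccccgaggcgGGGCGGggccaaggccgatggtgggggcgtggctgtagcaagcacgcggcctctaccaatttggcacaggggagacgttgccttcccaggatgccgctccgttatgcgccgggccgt
Gpx3: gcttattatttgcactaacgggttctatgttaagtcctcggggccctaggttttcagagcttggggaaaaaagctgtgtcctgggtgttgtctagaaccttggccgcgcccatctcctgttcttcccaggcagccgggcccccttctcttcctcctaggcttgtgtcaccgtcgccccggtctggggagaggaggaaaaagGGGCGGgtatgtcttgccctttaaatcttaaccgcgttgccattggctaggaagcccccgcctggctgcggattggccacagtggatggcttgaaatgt
Sod1: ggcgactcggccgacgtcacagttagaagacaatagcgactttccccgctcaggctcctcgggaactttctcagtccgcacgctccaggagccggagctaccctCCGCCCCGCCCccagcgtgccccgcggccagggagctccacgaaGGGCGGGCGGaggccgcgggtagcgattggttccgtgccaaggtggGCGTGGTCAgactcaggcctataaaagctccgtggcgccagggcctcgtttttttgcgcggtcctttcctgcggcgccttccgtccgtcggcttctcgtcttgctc
These windows are chr17:13007589-13007888, chr11:54902604-54902903 and chr16:90220512-90220811, all on the + strand. Sod2 and Sod1 each held 4 GC boxes, some of them overlapping in Sod1, and Gpx3 held 1. A GC box was found in 11 of the 12 promoters of these 9 members, the exception being 1 of the 4 of Gpx4, and in 35.7% of all 32851 promoters and 64.9% of promoters of the genes tested here. The antioxidant response element core, the site of NRF2, was matched in Sod1 and in no other member, against 12.4% of all promoters and 14.7% of those of tested genes. The estrogen-related receptor element TNAAGGTCA was matched in none of them, against 1.28% of all promoters and 0.776% of those of tested genes. GC boxes were thus present both in genes that differed between depots and in Sod1, which did not pass the test.

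The 5 mitochondrial enzymes Sod2, Prdx3, Prdx5, Txn2 and Txnrd2 and the 2 secreted enzymes Sod3 and Gpx3 were higher in BAT than in both white depots. Gpx4, found in cytosol, mitochondria and nucleus, passed only against iWAT. The cytosolic Sod1 and the mainly cytosolic Gpx1 passed in neither comparison with BAT, and Gpx1 was lower in iWAT than in eWAT. These groups are not exclusive, since Prdx5 also acts in peroxisomes and the cytosol and Gpx1 is also found in mitochondria. The test was limma on log2(FPKM + 1), with p-values adjusted over the 10374 genes that reached 1 FPKM in 3 or more libraries, a filter that all 10 members passed, and a call at an adjusted p under 0.05. Intervals are not adjusted for the number of genes, and no test of the difference between compartments was made.

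**Figure D1:**
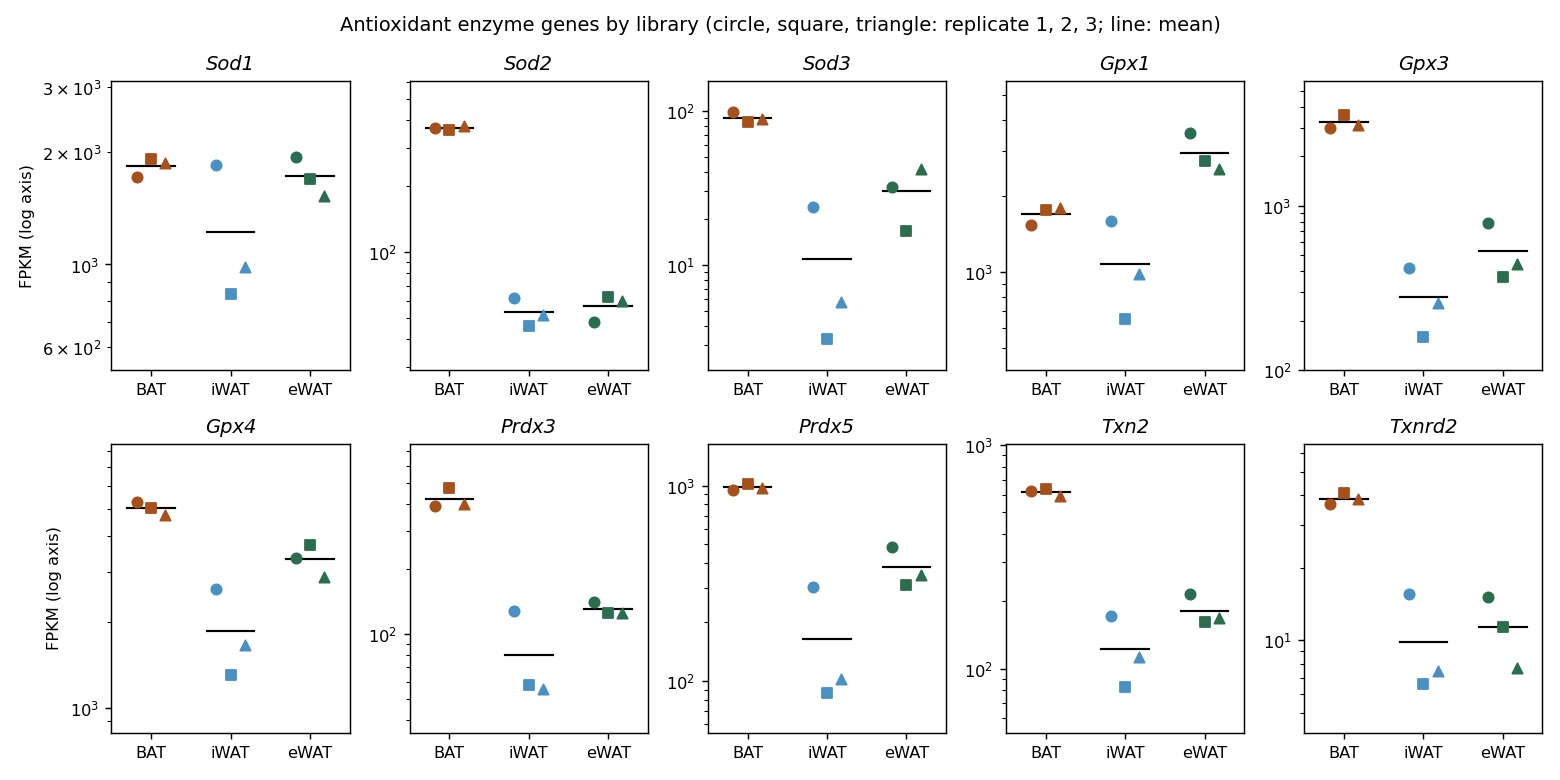
FPKM on a log axis for each member in each library; circles, squares and triangles are replicates 1, 2 and 3, and the line is the mean of 3 libraries. The BAT libraries of Sod2, Sod3, Gpx3, Gpx4, Prdx3, Prdx5, Txn2 and Txnrd2 lie above all white libraries, whereas Sod1 overlaps and Gpx1 is highest in eWAT.

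Sod2, on chr17:13200705-13210985 (mm9, + strand), turns superoxide into peroxide in the mitochondrial matrix. It stood at 369.9, 361 and 379 FPKM in BAT libraries 1, 2 and 3, at 61.9, 46.2 and 51.9 in iWAT, and at 48.0, 62.4 and 59.95 FPKM in eWAT. Each BAT library was far above each white library, and the white depots overlapped. The mean was 6.94 times that of iWAT, or 2.78 on the log2 scale (SE 0.21, limma adjusted p = 1.1e-05), and 6.51 times that of eWAT, or 2.69 on the log2 scale (SE 0.21, limma adjusted p = 1.22e-05). iWAT and eWAT differed by -0.09 on the log2 scale, with a 95% interval of -0.55 to 0.37.

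Sod1, on chr16:90220987-90226567 (+ strand), is the cytosolic copper-zinc dismutase and the most abundant of the 3 in every library. It stood at 1719, 1919 and 1870.1 FPKM in BAT, at 1847, 832 and 988 in iWAT, and at 1943, 1701 and 1531 FPKM in eWAT. iWAT 1 lay within the BAT range while iWAT 2 and iWAT 3 lay below all other libraries, and BAT and eWAT overlapped. The log2 difference of BAT from eWAT was 0.10 (95% interval -0.56 to 0.75, limma adjusted p = 0.822). Against iWAT it was 0.67 (SE 0.30, limma adjusted p = 0.0721), and it passed at 1.02 (limma adjusted p = 0.0012) when iWAT 1 was left out.

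Sod3, on chr5:52755185-52762644 (+ strand), is secreted and binds to the extracellular matrix. It stood at 97.6, 85.2 and 88.5 FPKM in BAT, at 23.6, 3.32 and 5.73 in iWAT, and at 32.1, 16.6 and 41.7 FPKM in eWAT. BAT overlapped with neither white depot, and iWAT 1 was 5.22 times the mean of iWAT 2 and iWAT 3. BAT exceeded iWAT by 3.35 (SE 0.56, limma adjusted p = 0.000829) and eWAT by 1.65 (SE 0.56, limma adjusted p = 0.0429) on the log2 scale. The call against eWAT was lost in 11 of 20 alternative settings, with adjusted p-values over all of them from 0.00136 to 0.281, and the order of iWAT and eWAT did not pass (log2 difference -1.71, limma adjusted p = 0.111).

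Within the superoxide dismutases, the share of summed FPKM differed between depots. Sod2 made up 16.1% ± 0.83 (SD, n = 3) of the 3 genes in BAT, 4.47% ± 1.10 in iWAT and 3.18% ± 0.71 in eWAT. Sod1 made up 79.9% ± 1.26 in BAT, 94.8% ± 0.66 in iWAT and 95.1% ± 1.2 in eWAT. The mitochondrial share was thus larger in each BAT library than in any white library, while the cytosolic enzyme remained the main one throughout.

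Gpx3, on chr11:54715955-54723879 (+ strand), is the secreted peroxidase best known from plasma. It stood at 3003, 3600.0 and 3129.6 FPKM in BAT, at 417, 159.9 and 255 in iWAT, and at 784, 371 and 443 FPKM in eWAT. The lowest BAT library was well above the highest white library, and iWAT and eWAT overlapped. The mean was 11.7 times that of iWAT (log2 difference 3.65, SE 0.37, limma adjusted p = 5.4e-05) and 6.09 times that of eWAT (log2 difference 2.68, SE 0.37, limma adjusted p = 0.000375). The difference from iWAT stood at the 99.2 percentile of all tested genes. It was the largest among the 10 members, except that Sod3 was above it without iWAT 1 (4.08 against 3.99) and with quantile normalization (3.04 against 2.78).

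Gpx1, on chr9:108241607-108242671 (+ strand), is the main peroxidase of the cytosol and is also found in mitochondria. It stood at 1538, 1765 and 1787 FPKM in BAT, at 1586, 656 and 987 in iWAT, and at 3556, 2758 and 2561 FPKM in eWAT. All eWAT libraries were above all others, and iWAT 1 lay within the BAT range. The mean in BAT was 0.574 times that of eWAT, a log2 difference of -0.79 (95% interval -1.48 to -0.10 before adjustment) that did not pass (limma adjusted p = 0.0743). iWAT was lower than eWAT by or -1.54 on the log2 scale (SE 0.31, limma adjusted p = 0.039), a call lost in 13 of 20 alternative settings with adjusted p-values over all of them from 0.00137 to 0.195. BAT against iWAT gave 0.75 (limma adjusted p = 0.0618), which passed at 1.07 (limma adjusted p = 0.00315) without iWAT 1.

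Gpx4, on chr10:79509911-79519184 (+ strand), reduces lipid peroxides in membranes and guards against ferroptosis. It stood at 5284, 5039.6 and 4772 FPKM in BAT, at 2611, 1307 and 1661 in iWAT, and at 3345, 3731 and 2886 FPKM in eWAT, the highest mean of any member in each depot. The 3 depots did not overlap, in the order BAT, eWAT, iWAT. BAT exceeded iWAT by 1.49 (SE 0.27, limma adjusted p = 0.00144) on the log2 scale, whereas 0.61 against eWAT (95% interval -0.00 to 1.21, limma adjusted p = 0.11) and -0.89 for iWAT against eWAT (limma adjusted p = 0.101) did not pass. RefSeq lists the copies Gpx4-ps1 and Gpx4-ps2, so that the level of Gpx4 is uncertain where reads could be shared with them.

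The make-up of the glutathione peroxidases moved accordingly. Gpx3 gave 31.6% ± 1.59 of the summed FPKM of 8 Gpx genes in BAT, 8.22% ± 0.94 in iWAT and 7.64% ± 2.38 in eWAT. Gpx1 gave 16.6% ± 1.39 in BAT, 32.1% ± 2.5 in iWAT and 43.0% ± 3.01 in eWAT. Gpx4 gave 49.2% ± 3.26, 56.7% ± 1.57 and 48.6% ± 5.38 in the same order. In the white depots Gpx1 thus outranked Gpx3, and in BAT Gpx3 outranked Gpx1.

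**Figure D2:**
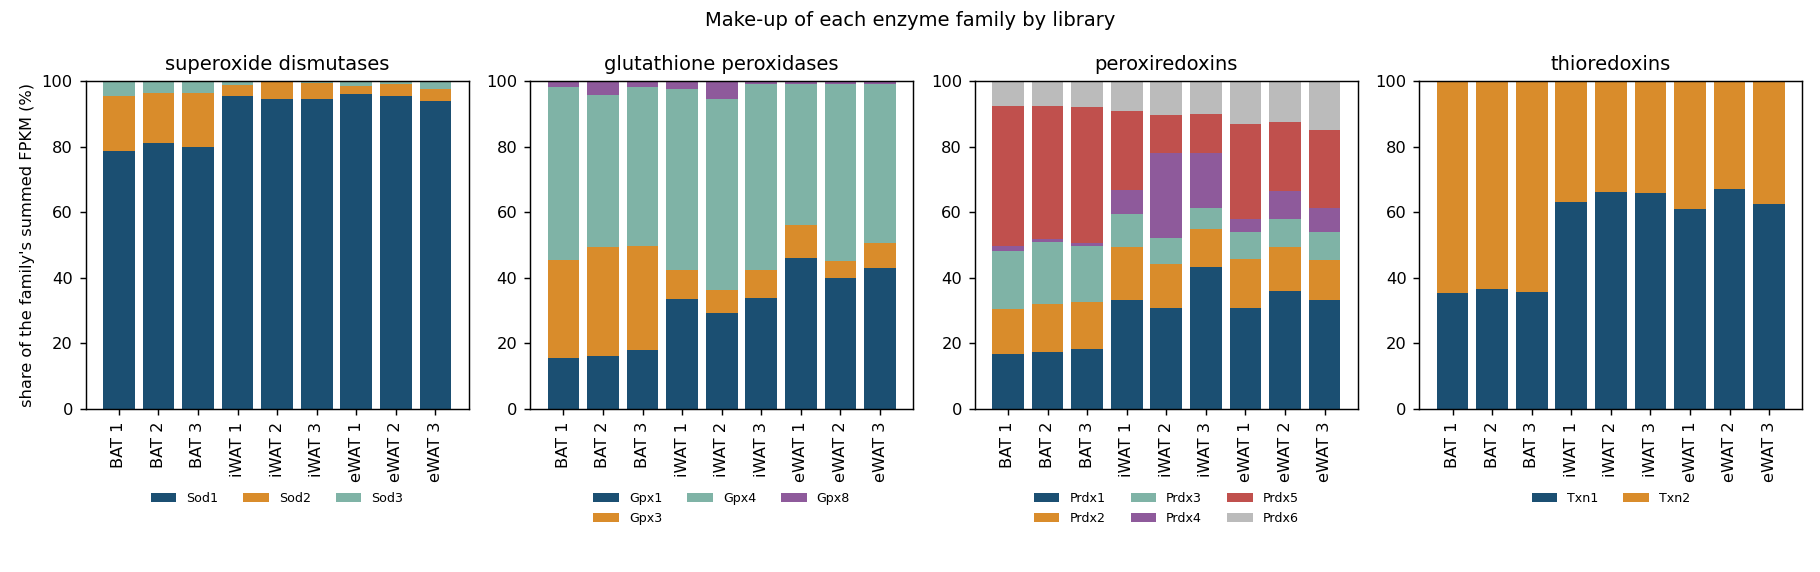
Share of the family's summed FPKM (percent, axis from 0 to 100) by gene and library, for superoxide dismutases, glutathione peroxidases, peroxiredoxins and thioredoxins. The rarest genes, such as Gpx7, are not drawn. Sod2, Gpx3, Prdx3, Prdx5 and Txn2 take larger shares in the BAT libraries than in the white libraries.

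Prdx3, on chr19:60939954-60950459 (- strand), is the peroxiredoxin confined to mitochondria. It stood at 390.2, 473 and 398 FPKM in BAT, at 127, 57.9 and 55.8 in iWAT, and at 141, 125 and 125 FPKM in eWAT. BAT stood clear of both white depots, and iWAT 1 fell among the eWAT libraries. BAT exceeded iWAT by 2.48 (SE 0.31, limma adjusted p = 0.000155) and eWAT by 1.68 (SE 0.31, limma adjusted p = 0.0020) on the log2 scale.

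Prdx5, on chr19:6981187-6984596 (- strand), had the highest level of the 6 peroxiredoxins in BAT. It stood at 947, 1024 and 973 FPKM in BAT, at 302, 86.5 and 103 in iWAT, and at 486, 308 and 349 FPKM in eWAT. The 3 depots did not overlap, although iWAT 1 came close to the lowest eWAT library. BAT exceeded iWAT by 2.81 (SE 0.41, limma adjusted p = 0.000421) and eWAT by 1.39 (SE 0.41, limma adjusted p = 0.0258) on the log2 scale. The call against eWAT was lost in 8 of 20 alternative settings, with adjusted p-values over all of them up to 0.36. The gene overlaps Trmt112 on the other strand, and the use of strand in counting is not given in the sources used here.

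Txn2, on chr15:77745477-77759436 (- strand), is the mitochondrial thioredoxin that hands electrons to Prdx3. It stood at 624, 635 and 592 FPKM in BAT, at 172, 82.6 and 113 in iWAT, and at 216, 161 and 168 FPKM in eWAT. BAT was above both white depots in every library, and the white depots overlapped through iWAT 1. BAT exceeded iWAT by 2.39 (SE 0.27, limma adjusted p = 0.000103) and eWAT by 1.77 (SE 0.27, limma adjusted p = 0.000755) on the log2 scale.

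Txnrd2, on chr16:18426510-18479166 (+ strand), reduces Txn2 with NADPH and was the least abundant member in BAT. It stood at 36.6, 40.9 and 38.6 FPKM in BAT, at 15.5, 6.60 and 7.48 in iWAT, and at 15.2, 11.3 and 7.64 FPKM in eWAT. BAT did not overlap with the white depots, which overlapped with each other. BAT exceeded iWAT by 1.96 (SE 0.33, limma adjusted p = 0.000881) and eWAT by 1.73 (SE 0.33, limma adjusted p = 0.00256) on the log2 scale.

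The mitochondrial chain also took a larger part of its families in BAT. Prdx3 and Prdx5 gave 17.8% ± 0.94 and 41.7% ± 1.06 of the 6 peroxiredoxins in BAT, 8.15% ± 1.87 and 15.9% ± 7.15 in iWAT, and 8.53% ± 0.12 and 24.7% ± 4.04 in eWAT. The cytosolic Prdx1 had a smaller share in BAT, 17.4% ± 0.86 against 35.8% ± 6.69 in iWAT and 33.3% ± 2.65 in eWAT, while its level did not differ past the threshold (411 ± 37.4, 339 ± 97.7 and 508 ± 17.5 FPKM). The share of cytosolic Prdx2 was 14.3% ± 0.40, 13.7% ± 2.37 and 13.5% ± 1.29, and its level was higher in BAT than in iWAT by 1.41 (limma adjusted p = 0.00293). Txn2 gave 64.2% ± 0.56 of the thioredoxins Txn1 and Txn2 in BAT, 35.0% ± 1.6 in iWAT and 36.6% ± 3.22 in eWAT. Txnrd2 gave 52.2% ± 0.91 of the 3 thioredoxin reductases in BAT, 38.3% ± 7.24 in iWAT and 36.0% ± 9.09 in eWAT. Mitochondrial thioredoxin was thus the major form in BAT and the minor form in both white depots.

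Counted together, 8 of the 10 members were called higher in BAT than in iWAT and 0 lower, where 57.5% of all tested genes were called, 34.5% higher and 22.9% lower in BAT. In 8 members the BAT libraries also lay wholly above the iWAT libraries, as in 38.5% of all genes, and in 0 wholly below, as in 27.2%. Against eWAT, 7 of 10 were higher in BAT and 0 lower, where 33.7% of all genes were called, 20.2% higher and 13.5% lower. The BAT libraries lay wholly above those of eWAT in 8 members, as in 32% of all genes, and wholly below in Gpx1, as in 22.7%. Between the white depots 1 of 10 was called, Gpx1, where 1.74% of all genes were called, 0.231% higher and 1.5% lower in iWAT. Gpx1, Gpx4 and Prdx5 lay wholly below eWAT in the iWAT libraries, as did 19.5% of all genes, and 0 members wholly above, as did 3.1%. The median log2 difference of the members was 2.43 for BAT against iWAT, 1.66 for BAT against eWAT and -0.84 for iWAT against eWAT, and over all tested genes it was 0.23, -0.02 and -0.18. The comparisons with iWAT and with eWAT share the BAT libraries and are not independent.

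**Figure D3:**
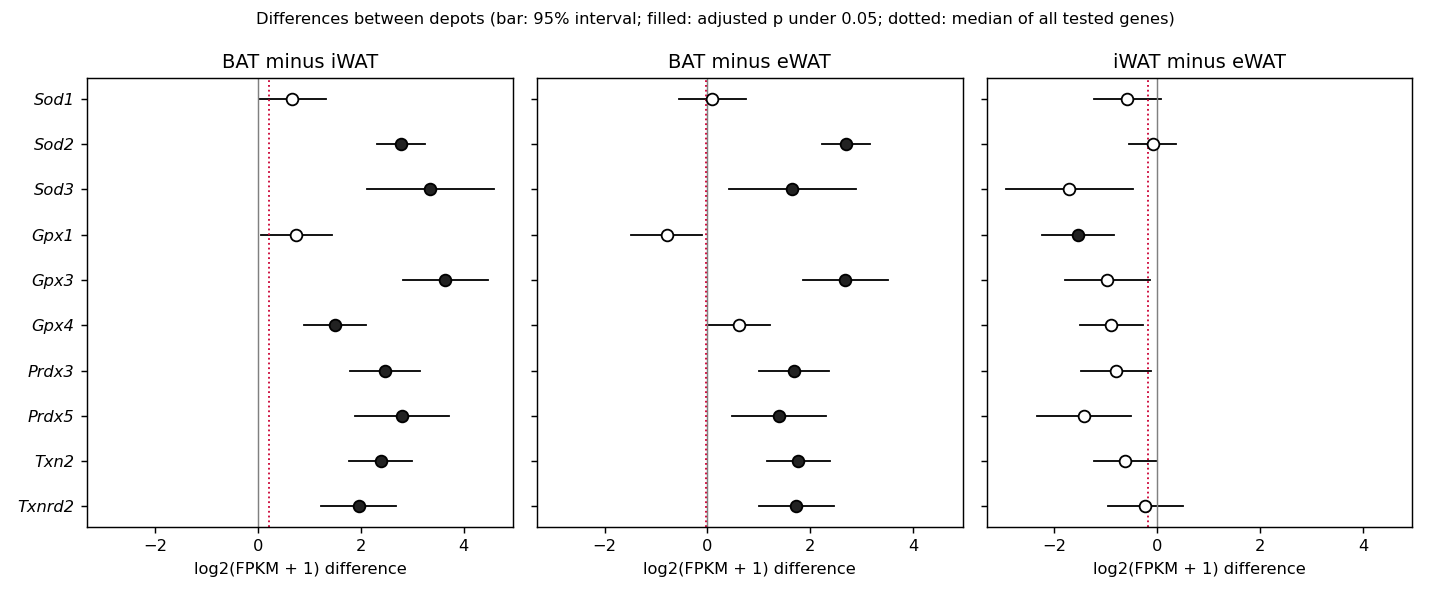
Log2(FPKM + 1) difference between depots for each member, with its 95% interval as a bar; filled points passed at an adjusted p under 0.05, and the dotted line is the median of all tested genes. In both comparisons with BAT the filled points lie to the right of 0, and Gpx1 is the only filled point between the white depots.

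The spread within depots was unequal. The SD of a member was 2.40% to 10.9% of its mean in BAT, 14.9% to 102% in iWAT and 6.84% to 42.1% in eWAT. All 10 members were higher in iWAT 1 than in iWAT 2 and iWAT 3, from 1.26 times the mean of those 2 for Sod2 to 5.22 times for Sod3. Without iWAT 1, 10 of 10 members exceeded iWAT in BAT, and 8 were higher and 1 lower in BAT than in eWAT. Between the white depots 8 were lower in iWAT, and Sod2 and Txnrd2 still did not differ past the threshold. Calls over all 10374 tested genes rose as well without iWAT 1. They went from 5961 to 6843 for BAT against iWAT and from 180 to 3321 for iWAT against eWAT, so the rise was not particular to the members. Without BAT 3, BAT was higher than iWAT in 8 members, where 4743 of all tested genes were called in either direction. It was higher than eWAT in 5, Sod3 and Prdx5 having lost their calls, and 0 were called between the white depots. With each of the 9 libraries left out in turn, 2357 to 4443 of all tested genes were called for BAT against eWAT. For iWAT against eWAT the range was 50 to 3321, so these member counts cannot be read alone. Sod2 and Gpx3 kept their calls against both white depots under all 20 alternatives.

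The white library closest to BAT in depth was eWAT 1. Against it alone, the mean of BAT was 7.71 times for Sod2, 4.14 times for Gpx3, 2.99 times for Prdx3, 2.85 times for Txn2, 2.82 times for Sod3, 2.55 times for Txnrd2 and 2.02 times for Prdx5. It was 1.504 times for Gpx4, 0.945 times for Sod1 and 0.477 times for Gpx1. eWAT 1 differed from eWAT 2 and eWAT 3 in make-up as well as in depth. Its skeletal muscle markers summed to 227 FPKM against 1296 and 1095, and its epithelial markers to 51.3 against 176 and 152. With eWAT 2 and eWAT 3 left out, a setting chosen after the data were seen, Sod2 and Gpx3 passed and the other 8 members did not, with the lone eWAT sample assumed to vary like the others. The direction stayed that of the full comparison in 9 members, and Sod1 went from 0.10 to -0.08 on the log2 scale.

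BAT is rich in mitochondria, so the mitochondrial members were set against a list of 36 nuclear genes named as subunits of respiratory complex I. These were Ndufa, Ndufb, Ndufc, Ndufs and Ndufv genes, with Ndufa4 among them. All 36 were higher in BAT than in iWAT, with a median log2 difference of 2.22, and 35 of 36 were higher in BAT than in eWAT, with a median of 1.96. Relative to the mean log2 level of these subunits, Sod2 was -1.51 to -1.43 in the BAT libraries and -2.67 to -1.67 in the 6 white libraries, without overlap. Sod2 thus exceeded complex I in its difference by 0.58 on the log2 scale, with p = 0.0357 in a two-sided exact permutation test over 84 splits and 0.179 after Benjamini-Hochberg adjustment over the 5 genes. The same difference was -0.08 for Prdx3, -0.06 for Prdx5, -0.08 for Txn2 and -0.31 for Txnrd2, with exact permutation p-values of 0.655, 0.905, 0.369 and 0.0952 before adjustment. The smallest possible p is 0.0119, which for a lone gene becomes 0.0595 after adjustment over 5, so that Sod2 alone could not have passed. Several genes at the smallest p could have passed together, but none of the 5 reached it. The missed threshold does not show that the genes do not differ. The splits treat iWAT and eWAT libraries as exchangeable. Permuting within replicate numbers gave 0.037 for Sod2 before adjustment, the smallest value its 27 arrangements can give, in the exact permutation test. Prdx5 lay above all BAT libraries in the 3 eWAT libraries, at 0.33 to 0.64, and below them in iWAT 2 and iWAT 3, at -0.78 and -0.74, while iWAT 1 at 0.0084 was just above BAT.

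**Figure D4:**
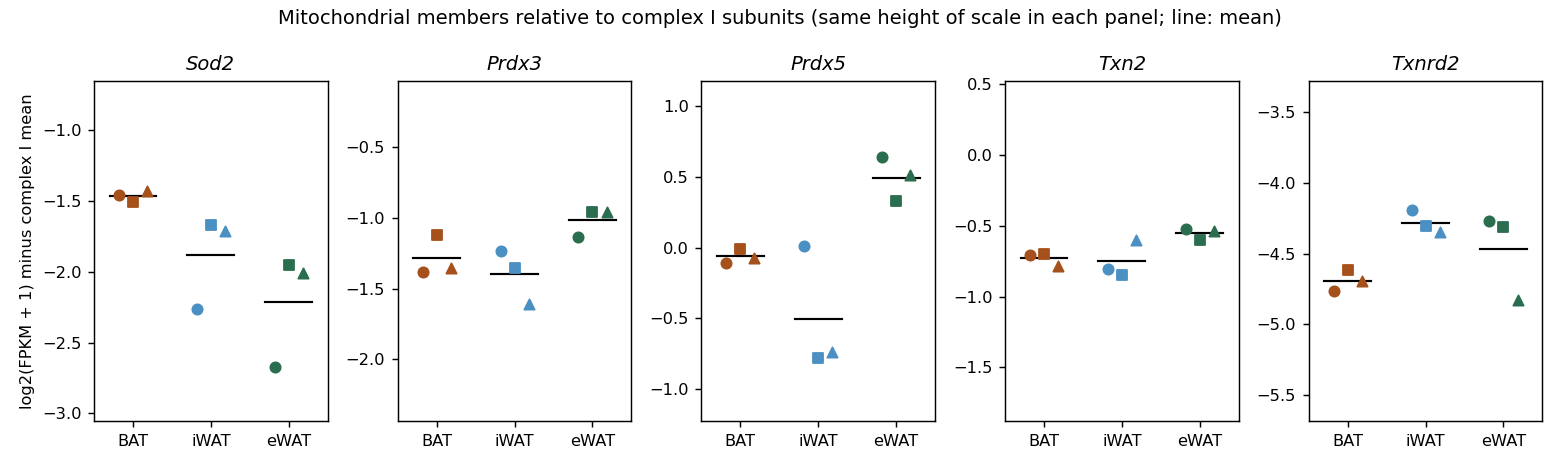
Log2(FPKM + 1) of each mitochondrial member minus the mean of the complex I subunits, by library; circles, squares and triangles are replicates 1, 2 and 3, lines are means, and every panel spans the same height of scale. Sod2 is the member whose 3 BAT libraries all lie above the 6 white libraries.

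Other genes of antioxidant defence were called in both directions. Of 81 genes in 9 lists, 77 were in the table and 71 were tested, and 37 were higher and 9 lower in BAT than in iWAT. Against eWAT, 18 were higher and 10 lower in BAT. Some lower calls came from genes under 1 FPKM in every BAT library, which passed the filter only through white libraries. These were Slc7a11, Nxn, Nnt, Sepn1 and Atp7a against iWAT, and Nnt, Nqo1, Sepn1 and Cyba against eWAT. Among the higher ones, Me3 passed only through BAT libraries. Such calls are tied to the filter. Between the white depots, Prdx6 was lower in iWAT (log2 difference -1.17) and was the only one of the 71 called. The calls thus covered 64.8% and 39.4% of the tested genes in the comparisons with BAT, beside 57.5% and 33.7% of all genes.

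Among 8 other peroxide-removing enzymes tested, 5 were higher and 1 lower in BAT than in iWAT, and 2 were higher and 2 lower than in eWAT. Catalase (Cat), the peroxisomal peroxidase, reached 287.8 ± 30.9 FPKM in BAT against 132 ± 65.0 in iWAT and 202 ± 5.81 in eWAT, and was higher than in iWAT by 1.21 (limma adjusted p = 0.00676) while 0.51 against eWAT did not pass (limma adjusted p = 0.209). Prdx4, the peroxiredoxin of the endoplasmic reticulum, was lower in BAT than in iWAT by a log2 difference of -2.28 and than in eWAT by -1.75, at 27.6 ± 6.07 FPKM against 143 ± 52.0 and 97.4 ± 30.8. Srxn1, which repairs overoxidised peroxiredoxins, was higher in BAT by 1.71 and 2.26, although iWAT 3 with 28.8 FPKM lay within the BAT range of 26.0 to 33.5. Gpx8, a peroxidase of the endoplasmic reticulum, was higher in BAT by 2.01 (limma adjusted p = 0.0172) and 2.85 (limma adjusted p = 0.00501), with 448 FPKM in BAT 2 beside 183 and 185 in BAT 1 and BAT 3. The difference in Prdx4 ran against that in Prdx3 and Prdx5, members of the same family. In the 11 genes of glutathione synthesis and recycling, 5 were higher and 1 (Slc7a11) lower than in iWAT. Against eWAT, 3 were higher. These included the glutaredoxins Glrx (2.17 and 2.37) and mitochondrial Glrx2 (1.63 and 1.16), and Slc25a39 (1.56 and 0.89), which carries glutathione into mitochondria.

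Among 10 genes of the thioredoxin system and methionine sulfoxide reductases, 5 were higher and 1 (Nxn) lower in BAT than in iWAT. Against eWAT, 2 were higher. Msrb2, the mitochondrial methionine sulfoxide reductase, gave log2 differences of 3.16 and 2.32. The cytosolic reductase Txnrd1 reached 29.4 ± 1.58 FPKM in BAT against 10.8 ± 2.46 in iWAT and 12.6 ± 0.50 in eWAT, with log2 differences of 1.38 and 1.17. Txnrd1 and Txnrd2 were thus higher in BAT, whereas Txnrd3 gave 0.48 (limma adjusted p = 0.169) and -0.24 (limma adjusted p = 0.526). Cytosolic Txn1 was higher than in iWAT by 0.66 (limma adjusted p = 0.0418) and gave 0.13 against eWAT (limma adjusted p = 0.697).

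NADPH feeds both reductase chains. Among its 11 genes, 6 were higher and 1 lower in BAT than in iWAT, and 5 were higher and 2 lower than in eWAT. The mitochondrial malic enzyme Me3 reached 12.2 ± 0.77 FPKM in BAT against 0.37 ± 0.28 in iWAT and 0.07 ± 0.04 in eWAT. Me3 passed the filter only through the BAT libraries. G6pdx, which opens the pentose phosphate pathway, was higher in BAT by 2.04 and 1.23 on the log2 scale, and Tkt of the same pathway by 1.28 and 1.78. Nnt, the mitochondrial transhydrogenase, was low everywhere, with 0.19 ± 0.10 FPKM in BAT against 1.05 ± 0.12 in iWAT and 2.06 ± 0.34 in eWAT. Nnt was lower in BAT by log2 differences of -0.78 and -1.36, and passed the filter only through white libraries. The labels name no substrain of C57BL/6.

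The 6 factors that build selenocysteine into proteins, needed for 4 of the members, had 5 higher and 0 lower in BAT than in iWAT and 2 higher than in eWAT. Sephs2, which makes the selenium donor, reached 265 ± 10.6 FPKM in BAT against 39.0 ± 7.16 in iWAT and 47.1 ± 8.30 in eWAT, with log2 differences of 2.75 (limma adjusted p = 1.48e-05) and 2.48 (limma adjusted p = 2.61e-05). Pstk, which acts on the selenocysteine tRNA, gave 2.28 and 1.24. Of 10 other selenoproteins 6 were in the table, and 1 was higher and 2 lower in BAT than in iWAT, against 0 higher and 2 lower than in eWAT. Sepp1, the secreted selenium carrier, was higher than in iWAT by 1.79 and gave 0.81 against eWAT (limma adjusted p = 0.0999). Sepw1 was lower in BAT by log2 differences of -1.27 and -1.96, and Sepn1 by -0.80 and -1.14. Sepn1 was low everywhere: its highest BAT value was 0.485 FPKM, and its highest value of all was 2.06, in eWAT 2. Sepn1 passed the filter only through white libraries, so its calls are tied to the filter and to values near 1 FPKM. The calls thus split among the 4 selenoprotein members and the other selenoproteins of this list, and genes of the remaining lists are not counted here. Gpx3 and Txnrd2 were higher in BAT than in both white depots, and Sepw1 was lower than in both. Sepn1 was also called lower in both comparisons, with the limit just given.

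Copper supply to Sod1 runs through its chaperone Ccs, which reached 77.2 ± 14.8 FPKM in BAT against 18.3 ± 7.40 in iWAT and 30.1 ± 5.00 in eWAT. Ccs was higher in BAT by 2.07 (limma adjusted p = 0.000306) and 1.33 (limma adjusted p = 0.00549) on the log2 scale, unlike Sod1 itself, which passed in neither comparison. Of the 5 genes of copper delivery 3 were higher in BAT in each comparison, and Cox17, which serves cytochrome oxidase, gave 2.32 and 2.12. Atp7a, the copper export pump that loads secreted enzymes such as Sod3, was lower in BAT than in iWAT by a log2 difference of -0.65. Its level was 0.50 ± 0.10 FPKM in BAT and 1.38 ± 0.39 in iWAT, and it passed the filter only through white libraries.

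The NRF2 pathway, named for the factor encoded by Nfe2l2 that drives many antioxidant genes, had 5 of 9 genes higher and 2 lower in BAT than in iWAT and 0 higher and 2 lower than in eWAT. Nfe2l2 was higher than in iWAT by 1.11 (limma adjusted p = 0.0042), and its small Maf partner Maff was lower in BAT, with log2 differences of -2.27 and -1.30. Nqo1, a classical target, was lower in BAT than in eWAT by a log2 difference of -0.86. Its level was 0.48 ± 0.36 FPKM in BAT and 1.65 ± 0.52 in eWAT. It passed the filter only through the eWAT libraries, so this call is tied to the filter and to values near 1 FPKM. Of 10 oxidant-producing enzymes, 5 were tested, with 2 higher in BAT than in iWAT, 1 higher than in eWAT and 2 lower than in eWAT. Gpd2, the mitochondrial glycerol-phosphate dehydrogenase and a source of superoxide, gave 3.42 and 3.53. Xdh (-1.75) and the oxidase subunit Cyba (-1.34) were lower in BAT than in eWAT. Cyba stood at 0.54 ± 0.39 FPKM in BAT and 2.96 ± 1.2 in eWAT. Since Cyba passed the filter only through white libraries, its call is tied to the filter and to values near 1 FPKM.

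**Figure D5:**
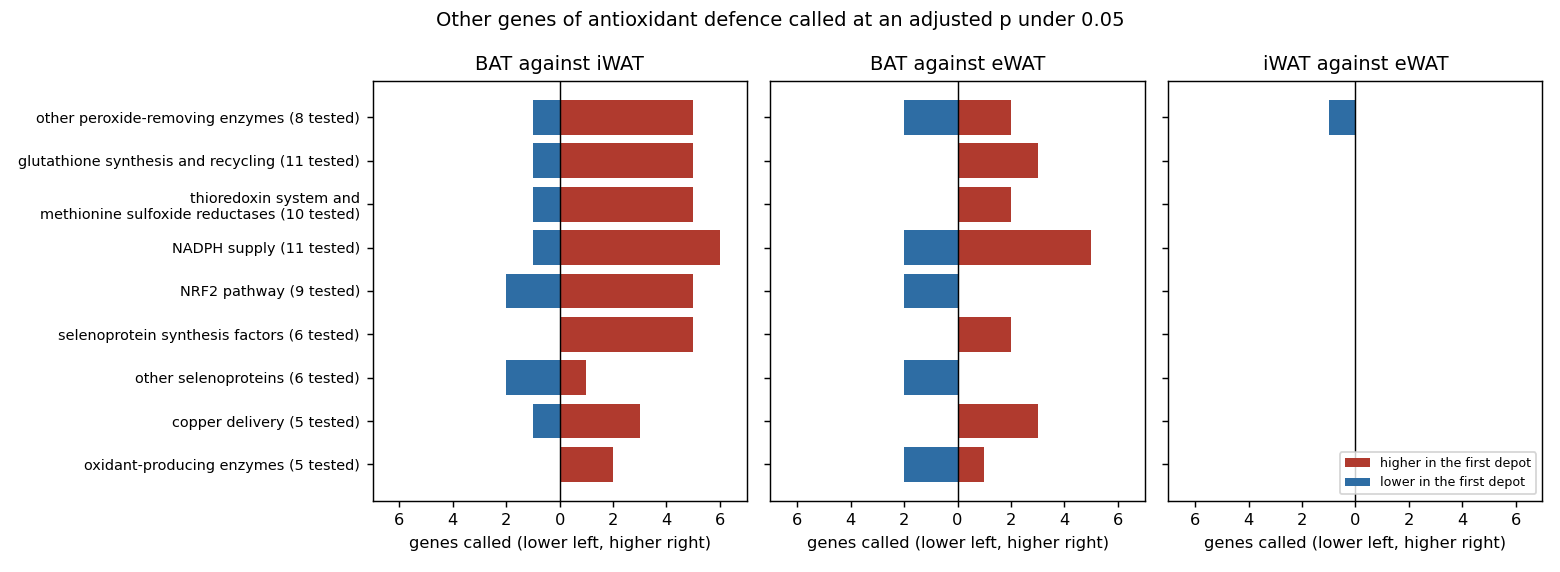
Number of genes in each antioxidant list called higher (right) or lower (left) in the first depot of each comparison. Most bars lie to the right for BAT against iWAT, bars lie on both sides for BAT against eWAT, and 1 gene, Prdx6, is called between the white depots.

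For each member the tested genes with the most similar profile were sought by the root mean square difference of centred log2(FPKM + 1) over the 9 libraries. The nearest to Sod2 were Crls1 (0.133) and Ogdh (0.134), which encode mitochondrial cardiolipin synthase and a subunit of the oxoglutarate dehydrogenase complex. Those to Gpx3 were the respiratory chain genes Cyc1 (0.235) and Sdhb (0.248), although Gpx3 is secreted. Those to Txnrd2 were Fam96a (0.116) and Cox4i1 (0.138), the latter a cytochrome oxidase subunit. Those to Prdx3 were Hibadh (0.0965) and Rnf5 (0.112), to Prdx5 Ssr4 (0.0928) and Rsph3b (0.117), and to Txn2 Pex7 (0.0916) and Hmg20b (0.0928). Sod1 had Dera (0.0638) and Gnptg (0.0711), Gpx1 had Camk1 (0.148) and Dctn6 (0.176), and Gpx4 had Ccdc97 (0.110) and Mrpl44 (0.112). Sod3 had the least similar neighbours, Nme2 (0.281) and Alg14 (0.297).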

How the data were processed

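Ribosome-bound RNA from 3 BAT, 3 iWAT and 3 eWAT samples was described by FPKM values that the authors deposited in 1 table, made with TopHat and Cufflinks on mm9 per the submitters' processing notes; the unit follows from Cufflinks and the values, since no header names it, and versions, annotation, filters and use of strand are not given in the sources used here. The table has 22996 rows, and the row with the highest mean was kept for each of 259 repeated symbols, none of them a member. The 10374 genes that reached 1 FPKM in 3 or more of 9 libraries were fitted on log2(FPKM + 1) with limma 3.58.1 in R 4.3.3 (3 group means, trended moderation, Benjamini-Hochberg adjustment). Fold changes on this scale understate those of low genes. The members and lists were chosen with earlier results of these data known. All members are named. Of each list, the called genes named come from up to 4 per comparison with the largest difference, plus Nnt and Txnrd1. Slc7a11 is named because it passed the filter only through white libraries. Cat, Prdx1, Txn1 and Txnrd3 are given as counterparts of the members, chosen after their values were seen. Depth was estimated from the steps between low values over transcripts of at least 1000 bases; 45.0% to 63.7% of the values came within 0.15 reads of a whole number, too few for a test on reads, so depths only rank libraries. Deviations of same-numbered libraries correlated at 0.165 to 0.634 between iWAT and eWAT, where different numbers gave -0.576 to 0.228. Between BAT and iWAT they correlated at -0.324 to 0.121 (different numbers -0.211 to 0.335). Between BAT and eWAT the values were -0.388 to 0.103 (different numbers -0.314 to 0.374). In the white depots number 3, at 0.165, fell below iWAT 2 with eWAT 3, at 0.228. Replicate 1 was also the deepest library of both white depots, so pairing and depth cannot be told apart there. No label gives a pairing. Alternatives covered pseudocount, filter, scaling, weights, pairing and left-out libraries. The scripts were tested on simulated data.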

Additional observations from a re-analysis of the deposited data

How the results depend on the processing

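Over 20 alternatives of the depot comparisons, 533 of 600 member values kept their direction and side of the threshold, 35 lost a call, 23 gained one and 9 reversed. Over 13 alternatives relative to complex I, 57 of 65 kept both, 1 gained a call and 7 reversed. The replicate block gave 8, 7 and 1 members and changed no other call of a member; in the comparison with complex I, permuting within the replicate numbers, a setting chosen with the data in view, gave 0 of 5. Of 5961 (BAT against iWAT), 3492 (BAT against eWAT) and 180 (iWAT against eWAT) genes called, a filter at a mean of 5 FPKM, which tests fewer genes, left 3783, 2244 and 79. Array weights, whose estimation gave a convergence warning, gave 6625 in BAT against eWAT (3098 higher and 3527 lower, against 2094 and 1398) and, in iWAT against eWAT, 1970 genes and 5 members. Leaving out eWAT 2 and eWAT 3 gave 1427 genes and 2 members in BAT against eWAT. In iWAT against eWAT 0 members and 90 genes were called with pseudocount 0.1, 0 and 93 without a filter, 0 and 113 (32 higher and 81 lower, against 24 and 156) with median-ratio scaling, 0 and 28 with those depots fitted alone, and 0 and 44 without eWAT 2 and eWAT 3; the cause was not tested. Leaving out each library in turn gave 8 to 10, 5 to 9 and 0 to 8 members and 4535 to 6843, 2357 to 4443 and 50 to 3321 genes, the last without iWAT 1. Median-ratio scaling moved the median of all genes in BAT against iWAT from 0.23 to 0.04 and in iWAT against eWAT from -0.18 to -0.00, and turned Sod2 in iWAT against eWAT to 0.15; it called 3008 genes higher and 2913 lower in BAT than in iWAT, against 3583 and 2378. Quantile normalization turned Sod1 (-0.092) and Gpx1 (-0.044) in BAT against iWAT, Sod1 (-0.53) and Gpx4 (-0.12) in BAT against eWAT, and Sod2 (0.11) in iWAT against eWAT. Without eWAT 2 and eWAT 3, Sod1 in BAT against eWAT was -0.083 and Sod2 in iWAT against eWAT 0.14; Sod2 there ranged from -0.20 to 0.0061 with each library left out. Set against the median of all genes instead of complex I, 5 of 5 mitochondrial members passed, with Prdx3 at 1.96, Prdx5 at 1.98, Txn2 at 1.96 and Txnrd2 at 1.72; against complex I, Prdx5 ranged from -0.21 to 0.072 with each library left out. The lower depth of the iWAT libraries limits the precision of low values such as those of Sod3.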
